A study of Mus musculus with 8 samples.

Results

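The 35 genes of glycolysis and of the cellular response to low oxygen were followed through neurospheres made from mice without HP1gamma, the chromatin protein encoded by Cbx3, and from wild-type mice. A fixed list named 15 glycolytic enzymes and 20 other targets of the hypoxia response. Probes were assigned to them through their RefSeq accession, which gave 62 of the 55681 distinct probes on the array and 35 of the 20660 gene symbols they matched. Each gene is represented by its brightest probe, which was well above background for 34 genes. Car9, the tumour-associated carbonic anhydrase, was well above background on 1 of 8 arrays, KO floating 3, and was not tested.

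Glycolysis splits glucose into pyruvate in the cytosol, and lactate dehydrogenase turns pyruvate into lactate when the mitochondria do not take it up. When oxygen is low, prolyl hydroxylases stop marking the transcription factor HIF-1alpha for destruction, and HIF-1 then binds short DNA elements near genes for glucose uptake, nearly every glycolytic step, lactate export, blood vessel growth and mitophagy. Neural stem cells in culture rely strongly on glycolysis, and cells deep within a sphere receive less oxygen than those at its surface.

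The neurospheres are free-floating balls of neural stem and progenitor cells. They came from the ganglionic eminence of the forebrain at stage E14.5, with 1 brain per sample, and had reached the quaternary stage, grown for 7 days with EGF and bFGF at 20 ng/ml each. There were 2 arrays of HP1gamma KO cells in adherent culture, 3 of HP1gamma KO cells in floating culture and 3 of wild-type cells in floating culture, called KO adherent, KO floating and WT floating here. The labels describe neither the KO allele nor the adherent culture, and no adherent wild-type sample is among them. The labels do not say whether samples with the same number share a litter or a culture day, so p-values measure the spread between these samples only.

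The level of a gene is given throughout as log2 of its processed signal minus log2 of the array's 75th percentile, so that 0 is the 75th percentile and 1 unit is 2-fold. A level compares arrays for the same probe and does not compare genes. The 75th percentile was 616 to 865 and 44.5% to 55.4% of spots were well above background. The number of arrays limits the precision. No spot of these genes was saturated. All 9 neural stem cell markers were well above background on all 8 arrays. Of 7 ganglionic eminence markers 3 were so on all 8 arrays, and Gsx2 and Nkx2-1 on none. Of 6 microglial markers, Csf1r was well above background on all 8 arrays, P2ry12 on 6, and Aif1, Cx3cr1, Ptprc and Tyrobp on none.

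The Cbx3 level did not follow every label. It was -2.03 and 5.91 on KO adherent 1 and 2, -1.86, -2.76 and -1.75 on KO floating 1 to 3, and 5.83, -2.17 and 5.95 on WT floating 1 to 3. WT floating 2 thus had a KO-like level and KO adherent 2 a wild-type-like level, so each comparison below is given with and without these arrays. Arrays are called by their labels throughout.

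HIF-1 binds the core letters ACGTG or GCGTG, and the 250 bases before each start site in the RefSeq promoter table (GRCm38.p6) were read for both words on both strands. A promoter was found there for 32 of the 35 genes, and at least 1 promoter of 29 of them (90.6%) held a word, 13 of 15 glycolytic enzymes and 16 of 17 other targets. Among all 27025 genes of that table the share was 41.5%, and among the 10557 with a feature tested on these arrays 60.2%. ACGTG was present for 59.4% of the listed genes against 18.5% of all genes, and GCGTG for 65.6% against 30.9%. For each word alone, the share among the genes tested on these arrays was not counted. Counted by promoter, 77.3% of the 44 promoters of listed genes held a word, against 38.6% of all 32851. Such a match is a description of letters, not of binding. Shown are the promoters of Slc16a3 and Pfkp, the listed genes that passed in the joined comparison below, and of Hk2 and P4ha2, picked after their values were seen for their wide range over the arrays. Each is given on the strand of its gene, with matches in capitals (CACGT and CACGC are the words read on the other strand), and ends at the base before the start site of that table, at chr11:120948817-120949066 (Slc16a3, plus strand), chr13:6648772-6649021 (Pfkp, minus strand), chr6:82774455-82774704 (Hk2, minus strand) and chr11:54100674-54100923 (P4ha2, plus strand). For Hk2 and P4ha2 that site is the outer end of the annotated gene. For Slc16a3 and Pfkp the annotated gene begins further out, at 120948484 and 6649060, so their windows lie within the gene, before an internal start site.
Slc16a3: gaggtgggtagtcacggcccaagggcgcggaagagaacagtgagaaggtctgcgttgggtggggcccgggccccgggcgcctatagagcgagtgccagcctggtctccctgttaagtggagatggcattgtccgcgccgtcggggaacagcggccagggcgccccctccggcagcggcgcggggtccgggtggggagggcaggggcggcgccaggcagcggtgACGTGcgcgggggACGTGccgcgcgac
Pfkp: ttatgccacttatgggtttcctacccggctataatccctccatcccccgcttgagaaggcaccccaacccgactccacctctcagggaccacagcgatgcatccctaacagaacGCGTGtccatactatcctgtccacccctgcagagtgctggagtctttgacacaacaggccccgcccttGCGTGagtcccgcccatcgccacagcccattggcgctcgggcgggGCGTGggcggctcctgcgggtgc
Hk2: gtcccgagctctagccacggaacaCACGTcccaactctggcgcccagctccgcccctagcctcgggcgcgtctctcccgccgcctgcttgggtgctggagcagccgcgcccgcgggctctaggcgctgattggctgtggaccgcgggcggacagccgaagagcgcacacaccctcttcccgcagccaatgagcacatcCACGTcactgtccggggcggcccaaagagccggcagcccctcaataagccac
P4ha2: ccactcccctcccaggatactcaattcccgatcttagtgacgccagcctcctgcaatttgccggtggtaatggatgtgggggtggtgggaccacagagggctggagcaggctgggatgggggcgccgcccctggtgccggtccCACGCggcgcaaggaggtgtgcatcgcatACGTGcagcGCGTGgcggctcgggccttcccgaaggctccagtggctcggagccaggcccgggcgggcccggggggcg
Slc16a3 held ACGTG on the plus strand of the gene at 27 and 14 bases before that start site, and Pfkp held GCGTG at 136, 68 and 23 bases. Hk2 held ACGTG on the other strand at 226 and 52 bases. P4ha2 held GCGTG on the other strand at 107 bases, ACGTG at 78 and GCGTG at 69.

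The glycolysis and hypoxia genes shared an order over the 8 arrays in which the floating arrays numbered 2 came lowest, under the KO and the WT label alike. KO floating 2 and WT floating 2 were the lowest arrays for 30 of 34 genes, 13 of 15 glycolytic enzymes and 17 of 19 other targets, against 27% of the 22705 features tested. The exceptions were Slc16a3, Pfkp, Pfkfb4 and Hif1a, on the probes used. A second Pfkp probe, well above background on 7 arrays, was lowest on KO floating 2 (-3.96) and WT floating 2 (-3.28). Both arrays carried a low Cbx3 signal, as did KO floating 1 and 3 and KO adherent 1, which were not low for these genes as a group. The part of the Cbx3 level in this order was not tested. KO floating 2 alone held the lowest value for 27 of the 33 genes with 8 values, which was 81.8% against 25.5% of all features. The median over the 15 enzymes of each gene's deviation from its own mean was -0.70 on KO floating 2 and -0.60 on WT floating 2, and lay between 0.02 and 0.42 on the other arrays. Over the other targets it was -1.03 on KO floating 2 and -0.86 on WT floating 2, and between 0.11 and 0.57 on the rest.

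**Figure D1:**
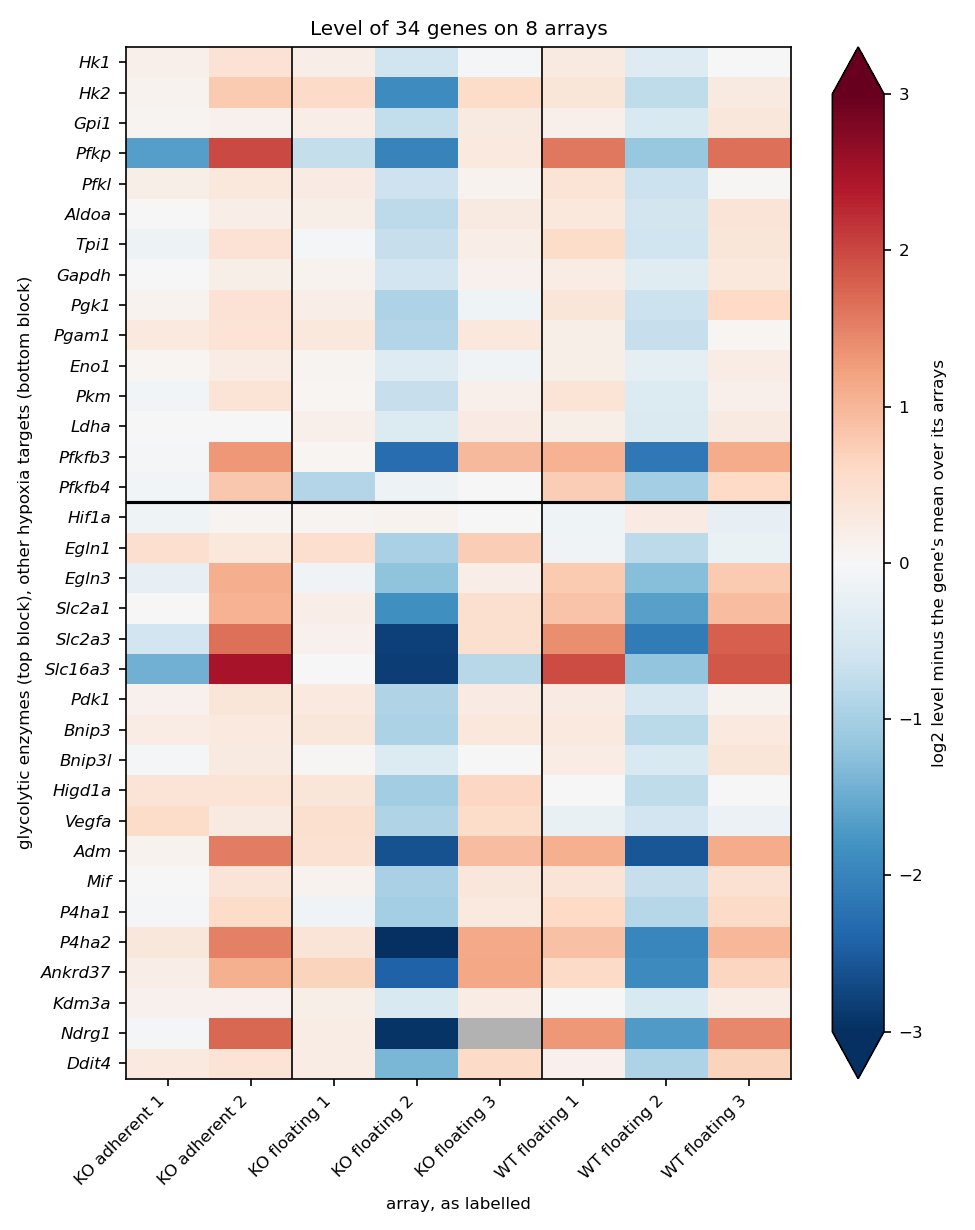
Deviation of each gene's log2 level from its mean over the 8 arrays (colour scale), with genes in rows and arrays in columns, glycolytic enzymes above other hypoxia targets. KO floating 2 and WT floating 2 are low in nearly all rows, and Hif1a and Pfkfb4 are among the rows that depart from this.

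**Figure D2:**
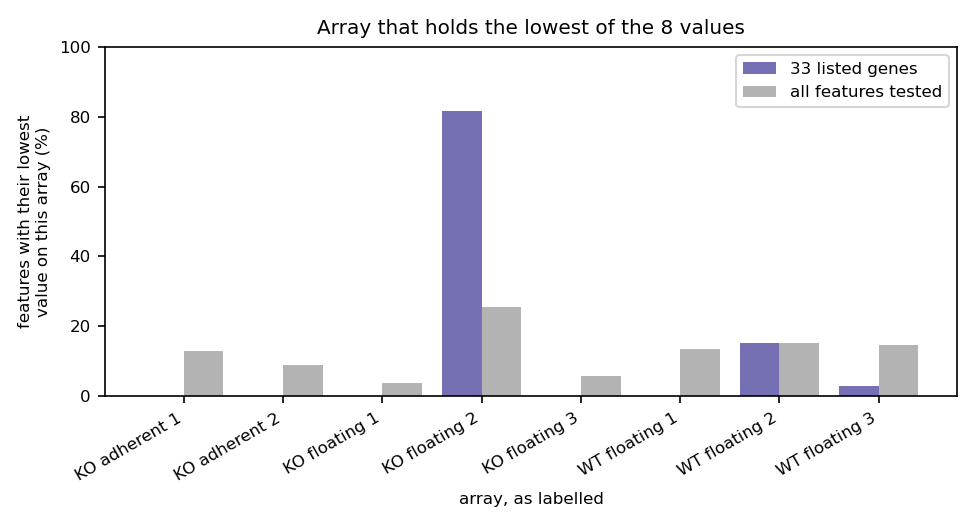
Percentage of features whose lowest of 8 values falls on each array, for the 33 genes with 8 values and for all features tested. KO floating 2 holds 81.8% of the genes and 25.5% of all features.

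The arrays KO floating 2 and WT floating 2 were neighbours on the slide, in row 1 at columns 3 and 4. KO floating 1 and WT floating 1 lay in the same row at columns 2 and 1 and were not low. The part of the slide position in the order was not tested. The 75th percentile was highest on KO floating 2 (856) and WT floating 2 (865), and 616 to 739 on the other arrays. With no scaling at all the number 2 floating arrays were the lowest for 26 of 34 genes, against 9.66% of features. After quantile normalization they were so for 25 of 34, against 20.7%. The 25 were 8 of 15 glycolytic enzymes and 17 of 19 other targets, so the order depended more on the scaling for the enzymes. Of the probes of these genes well above background on every array, 52 of 57 had their lowest values on these arrays. Many of them are repeat probes of the same gene, such as 7 for Gapdh, and are not separate results. The share over all probes was not counted.

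Genes outside the pathway moved with it. The same arrays were lowest for 17 of 17 immediate early genes tested, which answer growth factors, handling and stress within minutes. Their median level was -0.24 on KO floating 2 and 0.38 on WT floating 2, and 2.49 to 3.44 on the other 6 arrays. Of the genes of amino acid and endoplasmic reticulum stress, 10 of 11 had this order, as did 20 of 24 further hypoxia targets outside the list of 35. Of 20 genes of the citric acid cycle and respiration, 5 had it, or 25%, close to the 27% of all features. The part of immediate early or stress gene levels in the order of the glycolytic genes was not tested.

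On their brightest probes, the glycolytic enzymes Gapdh, Aldoa, Ldha and Gpi1 differed by 0.70 to 1.16 between their highest and lowest arrays. Gapdh, which oxidises glyceraldehyde 3-phosphate, had levels of 9.21 and 9.37 on KO adherent 1 and 2, 9.32, 8.62 and 9.34 on KO floating 1 to 3, and 9.42, 8.84 and 9.52 on WT floating 1 to 3. Its highest and lowest arrays were 1.86-fold apart on this probe. The dimmer probes of Gapdh and Ldha spread more. A Gapdh probe ran from 4.29 on KO floating 2 to 6.42 on WT floating 1. For Ldha, a dimmer probe ran from 5.11 on KO floating 2 to 6.79 on KO floating 3. Aldoa, the aldolase of muscle and most growing cells, had 9.15 and 9.33 on KO adherent, 9.31, 8.36 and 9.41 on KO floating, and 9.45, 8.60 and 9.52 on WT floating. Ldha, the lactate dehydrogenase subunit that favours lactate formation, had 8.94 and 8.92 on KO adherent, 9.07, 8.50 and 9.16 on KO floating, and 9.09, 8.48 and 9.18 on WT floating. Gpi1, the isomerase of the second step, had 8.94 and 8.98 on KO adherent, 9.04, 8.12 and 9.13 on KO floating, and 9.01, 8.40 and 9.20 on WT floating. In all 4, the number 2 floating arrays were the lowest and the KO and WT floating groups overlapped.

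The 4 enzymes with the widest spans were Pfkp, Pfkfb3, Hk2 and Pfkfb4, at 1.82 to 3.98. Hk1 and Pfkl, which also encode a hexokinase and a phosphofructokinase, spanned 1.03 and 1.05. Hk2, the inducible hexokinase, had levels of 1.84 and 2.53 on KO adherent, 2.31, -0.15 and 2.30 on KO floating, and 2.11, 0.98 and 2.01 on WT floating. Pfkfb3, which makes fructose 2,6-bisphosphate, an activator of phosphofructokinase, had 3.31 and 4.66 on KO adherent, 3.42, 1.07 and 4.34 on KO floating, and 4.42, 1.23 and 4.48 on WT floating. Its lowest and highest arrays were 12-fold apart. Pfkfb4, a hypoxia-inducible relative of Pfkfb3, had -1.12 and -0.23 on KO adherent, -1.92, -1.19 and -1.02 on KO floating, and -0.28, -2.05 and -0.44 on WT floating. Here the 3 highest arrays were those with a high Cbx3 signal, KO adherent 2 and WT floating 1 and 3.

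Pfkp, the platelet-type phosphofructokinase subunit, had levels of -0.66 and 2.98 on KO adherent 1 and 2, 0.30, -1.0 and 1.30 on KO floating 1 to 3, and 2.58, -0.13 and 2.66 on WT floating 1 to 3. The 3 arrays with a high Cbx3 signal were between 2.58 and 2.98 and the other 5 between -1.0 and 1.30, with no overlap. For the other 7 enzymes, Hk1, Pfkl, Tpi1, Pgk1, Pgam1, Eno1 and Pkm, the highest and lowest arrays were 0.60 (Eno1, the main enolase of growing cells) to 1.51 (Pgk1, the first ATP-yielding step) apart, and all 7 had their lowest values on the number 2 floating arrays.

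The other hypoxia targets are given by role, beginning with the oxygen sensors. Hif1a, the oxygen-regulated subunit of HIF-1, whose regulation is mainly at the protein level, had levels of 2.53 and 2.73 on KO adherent, 2.74, 2.75 and 2.64 on KO floating, and 2.53, 2.89 and 2.41 on WT floating. Its highest and lowest arrays were 1.40-fold apart, the narrowest span of the 34 genes, and KO floating 2 and WT floating 2 were its 2 highest arrays. That opposite order was held by 1 of 34 genes against 15.7% of all features. The hydroxylases Egln1 and Egln3, which mark HIF-alpha for destruction and are induced by HIF in turn, spanned 1.70 and 2.36.

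The transporters spanned more. Slc16a3, which encodes the lactate exporter MCT4, had levels of 2.30 and 6.21 on KO adherent 1 and 2, 3.75, 0.91 and 2.92 on KO floating 1 to 3, and 5.70, 2.55 and 5.61 on WT floating 1 to 3. The 3 arrays with a high Cbx3 signal lay between 5.61 and 6.21 and the other 5 between 0.91 and 3.75, and the full span of 5.30, or 39.3-fold, was the widest of the 34 genes. Slc2a3, the high-affinity glucose transporter GLUT3, had 2.76 and 4.97 on KO adherent, 3.46, 0.52 and 3.82 on KO floating, and 4.72, 1.24 and 5.13 on WT floating. The number 2 floating arrays were lowest, and above them the 3 arrays with a high Cbx3 signal again came first. Slc2a1, the general glucose transporter GLUT1, spanned 2.87.

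Ndrg1, a stress and hypoxia response gene, had levels of 2.85 and 4.64 on KO adherent, 3.14 and -0.04 on KO floating 1 and 2, and 4.21, 1.20 and 4.34 on WT floating. Its spot on KO floating 3 was an outlier and was left out, so its values for KO floating rest on 2 arrays. P4ha2, a collagen prolyl hydroxylase subunit, had 1.62 and 2.78 on KO adherent, 1.65, -2.01 and 2.40 on KO floating, and 2.16, -0.69 and 2.26 on WT floating. For P4ha2 the KO and WT arrays of numbers 1 and 3 overlapped and KO adherent 2 was highest. Only the number 2 floating arrays stood below them.

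Of the mitochondrial targets, Bnip3, a receptor for mitophagy, had levels of 8.16 and 8.23 on KO adherent, 8.29, 6.98 and 8.25 on KO floating, and 8.23, 7.14 and 8.22 on WT floating. Apart from the number 2 floating arrays, its values lay within 8.16 to 8.29. Higd1a, a small inner membrane protein of the respiratory chain, had 7.68 and 7.67 on KO adherent, 7.65, 6.24 and 7.89 on KO floating, and 7.27, 6.51 and 7.27 on WT floating. Pdk1, which closes the pyruvate dehydrogenase gate into the mitochondria, spanned 1.27, and Bnip3l, the relative of Bnip3, spanned 0.83.

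Among the secreted factors and the rest, Mif, a cytokine, had levels of 8.39 and 8.76 on KO adherent, 8.47, 7.40 and 8.70 on KO floating, and 8.76, 7.68 and 8.83 on WT floating. Ddit4, an inhibitor of mTORC1 signalling, had 6.20 and 6.32 on KO adherent, 6.13, 4.54 and 6.49 on KO floating, and 6.05, 4.99 and 6.59 on WT floating. Vegfa, the main blood vessel growth factor, had 5.73 and 5.44 on KO adherent, 5.66, 4.28 and 5.73 on KO floating, and 4.95, 4.60 and 5.00 on WT floating. Outside KO floating 2, every KO-labelled array was thus above every WT floating array for Vegfa, on the probe used. Adm, a vasodilator peptide, spanned 4.16, Ankrd37 3.60, the collagen hydroxylase subunit P4ha1 1.62 and the histone demethylase Kdm3a 0.69, all with the number 2 floating arrays lowest.

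**Figure D3:**
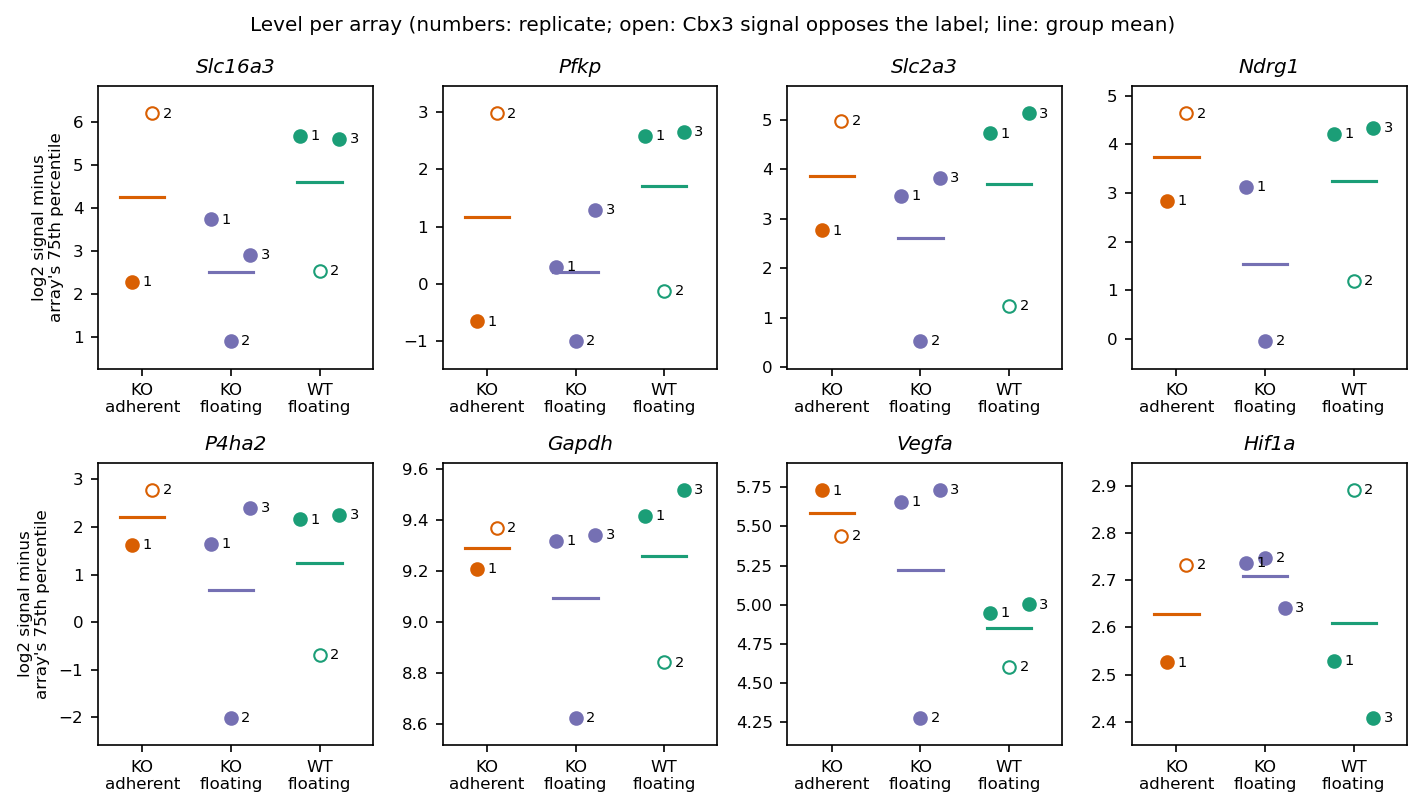
Log2 level of 8 genes on each array, relative to the array's 75th percentile, with KO adherent, KO floating and WT floating from left to right. Numbers give the replicate, lines the group means, and open points the arrays whose Cbx3 signal opposed their label. Slc16a3 and Pfkp are high on KO adherent 2, WT floating 1 and WT floating 3, Gapdh is lowest on the number 2 floating arrays, and Hif1a stays within 2.41 to 2.89.

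The question of how the loss of HP1gamma affects these genes in floating culture was addressed by KO floating against WT floating as labelled. No gene of the 34 passed an adjusted p of 0.05 in limma's test over 22705 features, and 1 feature (0.0044%) passed. At an unadjusted p under 0.05 there were 0 of 34 genes and 1.73% of features. The difference was below 0 for 14 of 15 glycolytic enzymes and 13 of 19 other targets, against 53.2% of features. The median log2 difference was -0.18 over the enzymes, -0.17 over the other targets and -0.03 over all features. After quantile normalization these medians were -0.04, -0.03 and 0.01. Slc16a3 differed by -2.09 (SE 1.30, adjusted p = 0.814, limma) and Pfkp by -1.51 (SE 1.15, adjusted p = 0.814, limma). Without KO floating 2 both medians turned above 0, to 0.11 and 0.29.

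Within the 3 pairs of floating arrays with the same number, KO floating was below WT floating in all 3 for 15 of 34 genes, against 25.4% of features. These were 9 glycolytic enzymes (Hk1, Pfkp, Aldoa, Tpi1, Gapdh, Pgk1, Eno1, Pkm and Pfkfb3) and 6 other targets (Slc2a1, Slc2a3, Slc16a3, Adm, Mif and P4ha1). KO floating was above WT floating in all 3 pairs for 0 of 34 genes, against 19.4% of features. The pair of number 2 joins arrays that both had a low Cbx3 signal, and after quantile normalization the count was 8 of 34, against 20.7% of features.

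Without KO adherent 2 and WT floating 2, the KO floating arrays were again compared with the WT floating arrays 1 and 3. No gene of the 34 passed, while 46 of 26028 features (0.177%) did. At an unadjusted p under 0.05, Pfkp, Pfkfb4, Egln3 and Slc16a3 were lower in KO, 4 of 34 genes against 12% of features. The medians were -0.44 over the enzymes, -0.60 over the other targets and -0.04 over all features. After quantile normalization they were -0.19, -0.34 and 0.02. This comparison keeps KO floating 2 but not WT floating 2, the arrays that were lowest for most of these genes. With KO floating 2 also left out, the medians of the enzymes and the other targets were -0.14 and -0.18.

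In what is called the joined comparison here, KO floating 1 to 3 were pooled with KO adherent 1 and set against WT floating 1 and 3. It was the only comparison of the 5 in which listed genes passed. Its arrays were kept by their measured Cbx3 signal, so its differences and p-values are not independent of the Cbx3 level. For KO adherent 1, culture form and genotype are mixed. Slc16a3 and Pfkp were lower in KO, which is 2 of 34 genes, and 8.34% of the 21506 features were called lower in the same fit. In either direction 17.3% of features were called in that fit. Slc16a3 fell by 3.18 on the log2 scale (SE 0.72, adjusted p = 0.0364, limma), or 9.08-fold, and Pfkp by 2.64 (SE 0.63, adjusted p = 0.0398, limma), or 6.23-fold. In both genes each of the 4 KO arrays was below both WT arrays. The second probe for Slc16a3 gave -3.20, and that for Pfkp, well above background on 7 arrays, -1.08.

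The remaining genes did not pass in the joined comparison. The differences were below 0 for 15 of 15 enzymes and 15 of 19 other targets, against 55.2% of features, with a median of -0.42 over the enzymes, -0.55 over the other targets and -0.07 over all features. After quantile normalization the medians of the enzymes and the other targets were -0.17 and -0.20. The joined comparison keeps KO floating 2 but not WT floating 2, the arrays that were lowest for most of these genes. With KO floating 2 also left out, the medians were -0.19 and -0.27. For 18 of 34 genes, 9 enzymes and 9 other targets, all KO arrays (4, or 3 for Ndrg1) were below both WT arrays, against 29.4% of features, and for 0 of 34 they were all above, against 24%. Closest to the threshold were Pfkfb4 at -0.95 (SE 0.27, adjusted p = 0.0591, limma) and Egln3 at -1.13 (SE 0.38, adjusted p = 0.0835, limma). Slc2a3 differed by -2.28 (SE 0.89, adjusted p = 0.118, limma) and Ndrg1 by -2.30 (SE 0.99, adjusted p = 0.156, limma).

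The call of Slc16a3 and Pfkp rests on few arrays and on the choice of fit. Leaving out KO adherent 1 left 0 of 34 genes called, and the share of all features called there is not given here. Leaving out KO floating 1 left Slc16a3 alone, in a fit that called 2.94% of features. Leaving out WT floating 1 or WT floating 3 leaves 1 WT array, so no count is given for those runs. Leaving out KO floating 3 gave 4 genes, with Pfkfb4 and Egln3 lower in KO as well, in a fit that called 22.9% of features. Leaving out KO floating 2, whose values were low for nearly all the genes, gave 8 genes in a fit that called 23.6% of features. Slc16a3, Pfkp, Slc2a3, Slc2a1, Ndrg1 and Egln3 were lower in KO there, and Vegfa (0.73, SE 0.11, adjusted p = 0.0173, limma) and Egln1 (0.73, SE 0.13, adjusted p = 0.0239, limma) were higher. With the replicate number as a block 7 of these genes passed, all but Slc2a1. The Vegfa direction depends on the probe, since its other probe differed by -0.55 in the joined comparison, against 0.37 for the probe used.

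**Figure D4:**
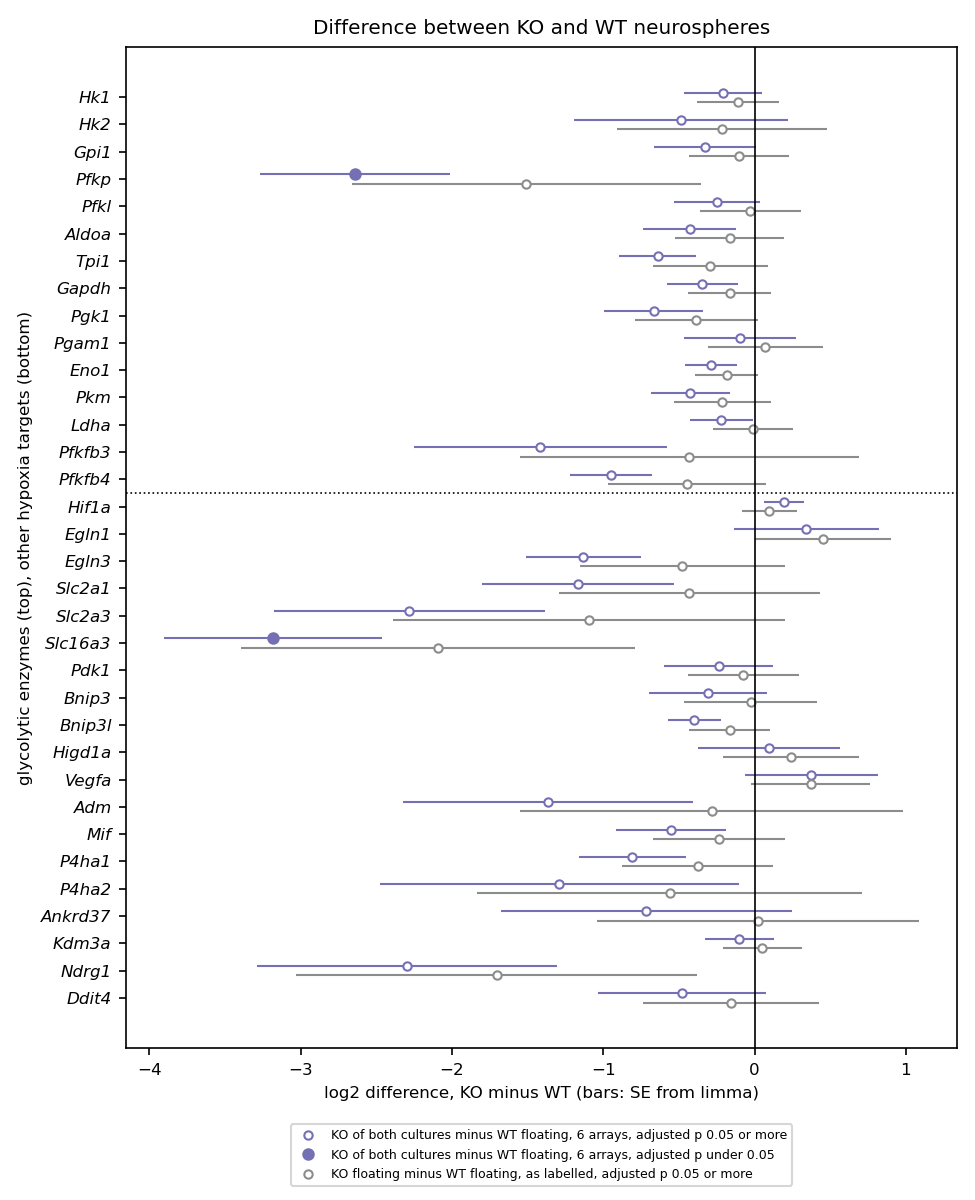
Log2 difference between KO and WT for each of the 34 genes, with the standard error from limma, for KO of both cultures against WT floating without KO adherent 2 and WT floating 2 (purple) and for KO floating against WT floating as labelled (grey). Slc16a3 and Pfkp carry the filled points that mark an adjusted p under 0.05, and 30 of the 34 purple points lie below 0.

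The Cbx3 signal itself orders the arrays another way. The 3 arrays with a high Cbx3 signal, KO adherent 2, WT floating 1 and WT floating 3, were the 3 highest of 8 for 16 of 34 genes, 8 enzymes and 8 other targets, against 22.6% of features. They were the 3 lowest for 0 of 34, against 17.2%. The 16 were Pfkp, Tpi1, Gapdh, Pgk1, Eno1, Pkm, Pfkfb3, Pfkfb4, Egln3, Slc2a1, Slc2a3, Slc16a3, Bnip3l, Adm, Mif and P4ha1. After quantile normalization the count was 10 of 34, against 18.3% of features. The arrays were grouped here by one measured gene and not by label, so this order has no test.

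The second question was whether the culture form changed these genes in KO cells. The culture protocol in the labels names low-attachment plates for every sample, those labelled adherent included, so what sets the adherent samples apart is uncertain. In KO adherent against KO floating cells, 33 of 34 differences were above 0, Hif1a being the exception, against 57.6% of features. No gene passed in limma's test, 0% of features did, and at an unadjusted p under 0.05 there were 0 of 34 genes and 1.12% of features. The medians were 0.34 over the enzymes, 0.51 over the other targets and 0.06 over all features, and without KO floating 2 they were 0.07 and -0.01 over the enzymes and the other targets. Without KO adherent 2 and WT floating 2, which leaves KO adherent 1 as the only adherent array, they were 0.20 and 0.32. With slide rows as blocks they were 0.12 and -0.0041. The array KO adherent 1, whose Cbx3 signal was low like that of the KO floating arrays, was below KO floating 1 for 29 of 34 genes, against 48.9% of features.

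In KO adherent against WT floating cells, which differ in both genotype and culture form, no gene passed, and 1 feature (0.0044%) did, with 0 of 34 genes and 1.8% of features at an unadjusted p under 0.05. The medians were 0.11 over the enzymes, 0.33 over the other targets and 0.03 over all features. Both KO adherent arrays were above all 3 WT floating arrays for Pgam1, Egln1, Higd1a and Vegfa, 4 of 34 genes against 7.12% of features. Without KO adherent 2 and WT floating 2, with KO adherent 1 as the only adherent array, the medians were below 0, at -0.26 and -0.40. They were also below 0 with slide rows as blocks, at -0.17 and -0.31. These comparisons share arrays with those above and are not independent of them.

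Beyond the 35 genes, the rest of the sugar pathway did not move as a block in the joined comparison, in which 17.3% of features were called. Of 20 further genes of glycolysis and its branches, 5 were higher and 2 lower in KO, with a median of -0.11. Aldoc, the aldolase of brain and a marker of astrocytes, had levels of 7.31 and 5.12 on KO adherent, 6.38, 7.55 and 6.11 on KO floating, and 3.62, 6.66 and 4.46 on WT floating, and was higher by 2.79 (SE 0.48, adjusted p = 0.0211, limma). Fbp1, a gluconeogenic phosphatase, was higher by 3.03, Pfkfb2 by 0.94, and Pgm2 fell by 1.05. Pfkm, the muscle-type phosphofructokinase named here after its value was seen, was higher by 0.52 (SE 0.14, adjusted p = 0.0480, limma), where Pfkp was lower. Of 5 neuronal markers tested 3 were higher in KO, among them Tubb3 by 1.26. Of 6 astrocyte markers 4 were higher and 1 lower, of 9 neural stem cell markers 2 were higher and 2 lower, and of 6 oligodendrocyte markers 2 were higher and 1 lower. Their part in the differences of the glycolytic genes was not tested, and in bulk samples fewer cells of a type and less RNA per cell cannot be told apart.

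Of 10 genes of oxygen sensing, Vhl, which delivers hydroxylated HIF-alpha for destruction, was higher by 0.64 and Epas1, the HIF-2alpha gene, fell by 0.95 in KO. Of 24 further hypoxia targets 0 were higher and 2 lower, Insig2 (-1.45) and Igfbp3 (-1.76), with a median of -0.41 over the 24. Of 20 genes of the citric acid cycle and respiration 0 passed, with a median of -0.07, equal to that of all features to 2 decimals. None of the 17 immediate early genes passed, and of 11 genes of amino acid and endoplasmic reticulum stress Phgdh, of serine synthesis, was higher by 0.75. In KO floating against WT floating as labelled, 0 genes of any of these lists passed.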

How the data were processed

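RNA from 8 neurosphere samples was hybridised to single-colour (Cy3) Agilent arrays of 1 slide. The deposited scanner files hold spot intensity, made with Feature Extraction 11.0.1.1 per the file headers, while version 9.1.3.1 stands in the submitters' processing notes. The authors' deposited value table holds the same linear intensity, within 0.01% of the processed signal for 93.2% of the spots of each array (repeated spots are averaged in the table), uncentred and not normalized between arrays.

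From there, the log2 processed signal was set against the 75th percentile of all non-control spots on its array, outlier spots were left out and repeated spots averaged. A probe entered a fit if at least 1 of the groups had it well above background throughout. Of 55681 probes, 27235 matched a symbol of the RefSeq table (GRCm38.p6) through their accession, and the others stayed as their own feature. A gene's probe with the highest mean in a fit was used, which for Gpi1 was another probe in the fits of 6 arrays. Tests used limma 3.58.1 in R 4.3.3 (lmFit, eBayes, two-sided) with 3 groups, and Benjamini-Hochberg adjustment over all features at 0.05. The fit was run on simulated data with independent noise on each array and a spread capped at the median over probes. That run does not bear on arrays with a doubtful label or on a shift shared by arrays.

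The 35 genes, the other lists and the joined comparison were chosen with earlier results of these data known, so lists are described by counts and medians beside all features, with no test. Per-array values are given for genes past the threshold and for the 4 with the highest mean (a rule of choice, not a comparison of genes) and the 4 with the widest range in each group of genes, and also for Hif1a and Vegfa, chosen after their values were seen. Of each other list, up to 4 passing genes with the smallest adjusted p are named.

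The other settings were quantile normalization, scaling to the median of probes above background, normexp with an offset of 50 (run on the median signal), the authors' table, other probe filters, the mean of all probes, only the groups compared, an intensity trend, replicate and slide-row blocks, and leaving out arrays. Deviations from group means correlated at 0.10, 0.59 and 0.33 between the KO and WT floating arrays numbered 1, 2 and 3, all above 0.1, which counts as pairing here. Other pairs reached 0.35, so the pairing is uncertain. A further result on marker genes is not reported here.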

Additional observations from a re-analysis of the deposited data

Results flagged for a closer look

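Among the 4 KO arrays of both cultures that remain without KO adherent 2, the gap between 1 array and its nearest neighbour was compared with the whole range for each of the 33 genes that have a value on all 4. In 8 genes the gap made up more of the range than Dixon's critical value allows, and in all 8 the array was KO floating 2, at the low end. The share was 0.850 for Pfkl, 0.985 for Pgam1, 0.858 for Egln1, 0.848 for Pdk1, 0.904 for Bnip3, 0.851 for Higd1a, 0.947 for Vegfa and 0.872 for Kdm3a. Chance alone gives such a gap in about 1 of 20 independent groups. These genes share the same 4 arrays and are not independent, so their count cannot be judged by that rate. The share of all features with such a gap was not counted. The groups of 2 and 3 arrays as labelled are too small for this check.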

How the results depend on the processing

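In the labelled comparisons 0 of 34 genes passed at an adjusted p of 0.05 under each alternative run, and the differences of Slc16a3 and Pfkp between KO floating and WT floating stayed below 0. In the joined comparison the count of 2 genes became 0 with no filter on dim probes and with slide rows as blocks. The share of all features called in those runs is not given here. With the mean of all probes Slc16a3 still passed and Pfkp did not, in a fit that called 17.5% of features. With the replicate block 7 genes passed, in a fit that called 19.2% of features. That block takes KO floating 2 out of the contrast by construction, since its number has no WT array there. Under the replicate block Slc16a3 differed by -2.68 (adjusted p = 0.0364, limma) and Pfkp by -2.16 (adjusted p = 0.0471, limma), and the block added no call in the other comparisons. Leaving out each KO array in turn gave 0 to 8 genes. With each array left out in turn, Slc16a3 lay between -3.61 and -2.66 and Pfkp between -3.08 and -2.31.

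Quantile normalization brought the medians closer to 0 in the comparisons of KO floating with WT floating and in the joined comparison, and raised that of the enzymes for KO adherent minus WT floating to 0.20. The replicate block gave medians of -0.14 and -0.18 for KO floating minus WT floating without KO adherent 2 and WT floating 2, -0.17 and -0.24 in the joined comparison, 0.77 over the other targets for KO adherent minus KO floating, and 0.26 and 0.76 for KO adherent minus WT floating.

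Leaving out each array moved the medians for KO floating minus WT floating to -0.44 to 0.11 over the enzymes and -0.60 to 0.29 over the other targets, the highest without KO floating 2. For KO adherent minus KO floating they were 0.07 to 0.58 and -0.01 to 0.80, and for KO adherent minus WT floating -0.18 to 0.37 and -0.06 to 0.75. Without KO adherent 2 and WT floating 2 the last comparison, with KO adherent 1 as its only adherent array, gave a median of -0.40 over the other targets. With all arrays it was 0.33. The repeat without both number 2 floating arrays and the unscaled order of arrays were chosen after seeing the data. Signal over background kept Car9 out of the tests reported.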
